A study of Mus musculus with 6 samples.

Results

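The imprinted growth genes described here were 35 genes known to be expressed mainly from the copy inherited from a single parent, together with their non-coding partners. They were picked by name from a table of 55850 genes, and all 35 names were found. By textbook assignment 18 are expressed from the paternal copy and 15 from the maternal copy, while Grb10 and Gnas use either copy depending on tissue or transcript. Other assignments can depend on tissue too, as for Ube3a, whose imprinting is known from neurons, and whether each holds in testis was not tested. The table holds total expression per gene, so reads of the maternal and paternal copies were not told apart.

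RNA of whole mouse testis was sequenced in 3 libraries of a conditional knockout (cKO) and 3 wild-type (WT) libraries, all without treatment. The gene under study, by the title of the series, is the splicing factor SRSF2 in Sertoli cells, which support germ cells inside the tubules of the testis. The sources used here do not give the promoter that drives the recombinase, the alleles of the WT animals, the strain, the age of the mice or any pooling. Nothing in the labels says that each library is a different mouse. The p-values therefore rest on the spread between libraries, which may be technical.

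Imprinting is set by DNA methylation that the egg or the sperm places at control regions and that somatic cells then keep. In general, paternally expressed genes of this kind, such as Igf2 and Peg3, favour growth of the fetus and young animal. Maternally expressed genes such as Igf2r and Cdkn1c restrain growth, and many genes of both kinds are switched down after birth. Germ cells erase these marks and lay down new ones, so a testis holds somatic cells with somatic imprints beside male germ cells. In bulk tissue, fewer cells of a type and less RNA per cell cannot be told apart.

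Sertoli cell markers were abundant and spermatid markers near 0, and since no age is given, the juvenile stage was read from these markers alone. Amh, a hormone of immature Sertoli cells, lay between 330 and 454 FPKM in cKO and between 619 and 907 FPKM in WT libraries. FPKM, the unit of the table, is reads scaled to gene length and library size. Of 16 spermatid markers 13 had a mean below 1 FPKM, and Prm1, a sperm protamine gene, reached at most 0.209 FPKM. Srsf2 had 74.0, 87.3 and 87.3 FPKM in cKO libraries, against 127, 96.7 and 102 FPKM in WT libraries, a log2 difference of -0.38 (SE 0.15, limma adjusted p = 0.384). Reads counted on genes, as recovered from the FPKM values, numbered 16070287 to 17281330 per library. The full sequencing depth is not known from them. Of these reads the 18S ribosomal RNA gene made up 0.727 to 0.835% in cKO and 1.58 to 2.09% in WT libraries. Mitochondrial genes made up 2.39 to 2.97% in cKO and 1.66 to 1.98% in WT libraries. How far these shares bear on the imprinted genes was not tested, except through the rescaled values named below.

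The sequences shown first are those at annotated starts of some members. They cover 250 bases before to 50 bases after a start annotated by RefSeq on GRCm38.p6. RefSeq windows were matched for 27 of the 35 genes (42 windows, of which some overlap, such as those of Mest). In the first 3 windows, capitals mark TGCCGC or its reverse complement GCGGCA, the hexamer that ZFP57, a zinc finger protein that keeps imprints, binds when it is methylated. Meg3 is shown because it had the lowest p of all members, and Mest and Zdbf2 because their windows held more than 1 copy. The Zdbf2 window shown lies upstream of the gene start in GENCODE M21 (63273265). The Zdbf2 window at that start (63273019 to 63273318) held 0 copies, and Meg3 and Mest also had a window with 0 copies.
Meg3 (chr12:109540746-109541045, plus strand): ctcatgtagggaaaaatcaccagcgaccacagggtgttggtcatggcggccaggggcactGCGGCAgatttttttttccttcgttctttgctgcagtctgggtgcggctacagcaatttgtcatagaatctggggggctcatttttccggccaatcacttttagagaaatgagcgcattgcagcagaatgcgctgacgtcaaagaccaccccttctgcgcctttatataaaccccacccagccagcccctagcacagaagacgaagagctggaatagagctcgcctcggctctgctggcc
Mest (chr6:30737800-30738099, plus strand): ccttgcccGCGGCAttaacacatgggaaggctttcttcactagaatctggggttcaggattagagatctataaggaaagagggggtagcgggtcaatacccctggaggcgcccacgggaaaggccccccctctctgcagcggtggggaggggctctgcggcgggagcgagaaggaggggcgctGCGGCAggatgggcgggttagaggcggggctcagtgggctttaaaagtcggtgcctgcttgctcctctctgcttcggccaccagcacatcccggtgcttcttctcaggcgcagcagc
Zdbf2 (chr1:63200108-63200407, plus strand): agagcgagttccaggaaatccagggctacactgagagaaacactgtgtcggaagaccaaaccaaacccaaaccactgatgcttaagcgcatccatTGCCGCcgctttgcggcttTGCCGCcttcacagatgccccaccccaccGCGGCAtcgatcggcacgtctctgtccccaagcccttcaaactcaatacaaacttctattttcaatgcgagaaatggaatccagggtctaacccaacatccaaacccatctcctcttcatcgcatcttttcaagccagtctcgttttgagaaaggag

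On both strands the hexamer stood in 11 of the 42 windows, 26.2%, in 10 genes, and in 11.6% of all 32851 promoter windows of the table. The median number of CG dinucleotides, which the hexamer contains, was 14.5 in the windows of imprinted genes and 7 over all windows. A match is a description of letters and says nothing of binding in these testes.

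Peg3 and Usp29, both paternally expressed, start 164 bases apart and point away from each other. In their shared window the capitals mark the first 50 bases from each start, those of Usp29 (read on the opposite strand) nearer the 5′ end and those of Peg3 at the 3′ end.
Peg3 (chr7:6730370-6730669, minus strand): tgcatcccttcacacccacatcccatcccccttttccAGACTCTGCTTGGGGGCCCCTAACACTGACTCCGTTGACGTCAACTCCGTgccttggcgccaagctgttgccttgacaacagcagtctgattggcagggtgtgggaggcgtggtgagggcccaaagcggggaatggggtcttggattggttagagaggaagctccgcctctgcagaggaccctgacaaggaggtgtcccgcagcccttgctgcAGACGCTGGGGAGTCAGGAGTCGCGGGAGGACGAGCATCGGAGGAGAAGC

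Imprinted genes spanned a wide range of levels in this testis. Of the 35, 4 had a mean of at least 100 FPKM, 12 lay between 10 and 100, 14 between 1 and 10, and 5 below 1 FPKM. H19 was the highest at 365 ± 25.7 FPKM in cKO and 457 ± 31.0 FPKM in WT testis (SD, n = 3 each). Dlk1, Cd81 and Mest followed, and their values overlapped within each group or lay close together, with the highest mean at Mest in cKO and at Dlk1 in WT testis. The 30 genes with a mean of at least 1 FPKM were tested, and the other 5 (Ascl2, Rtl1, Usp29, Kcnq1ot1 and Kcnk9) are described by level alone.

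**Figure D1:**
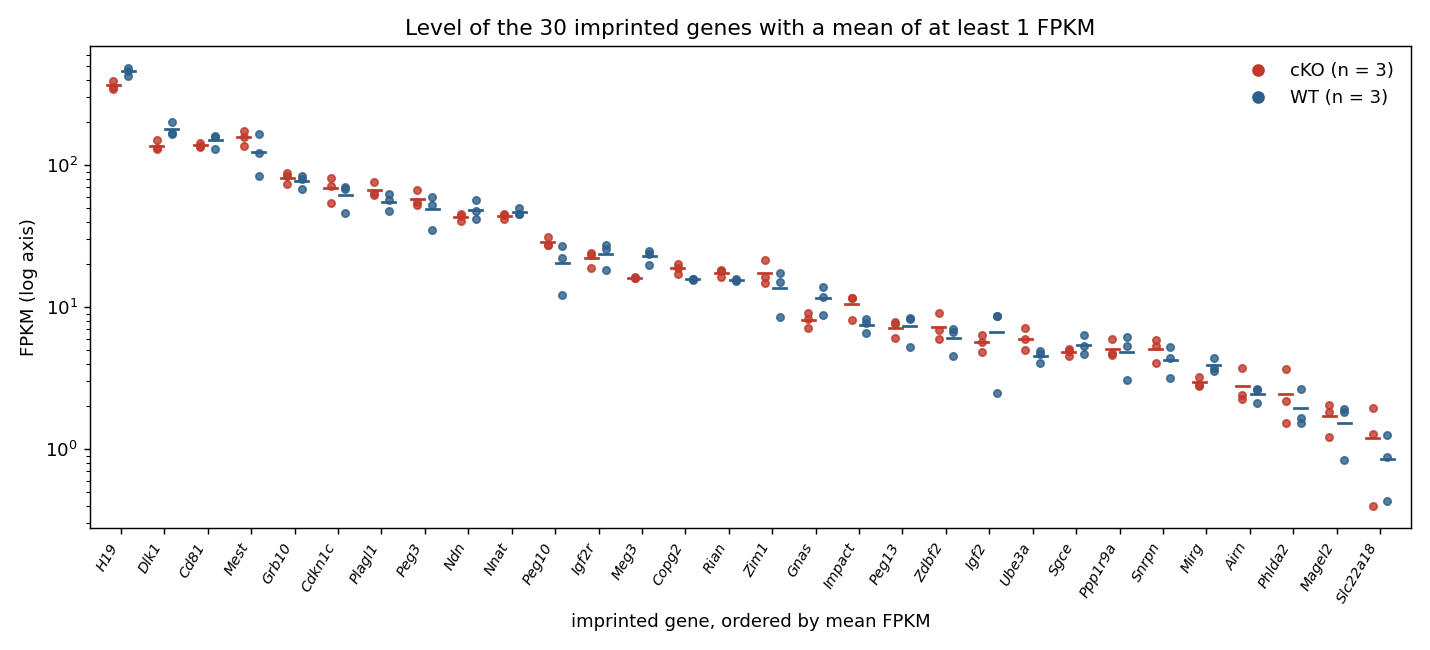
FPKM per library on a log axis for the 30 imprinted genes with a mean of at least 1 FPKM, ordered by mean level, with cKO libraries left of WT libraries and a line at each group mean (n = 3 each). H19 stands above all others, cKO and WT points are apart for 8 genes, and a single low WT point recurs in Peg3, Peg10, Zim1 and Igf2.

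The main comparison asked which imprinted genes differed between cKO and WT testis. The test was limma on log2(FPKM + 1), a scale that understates the change of low genes, with p-values adjusted over all 14238 tested genes and a threshold of 0.05. No imprinted gene passed: 0 of 30 were called higher and 0 lower, and the lowest adjusted p was 0.361, for Meg3. Over all tested genes 0.00702% were called higher and 0.00702% lower, 1 gene each. At an unadjusted p under 0.05, 2 imprinted genes (Impact and Ube3a) were higher and 4 (Meg3, Dlk1, Gnas and Mirg) lower, beside 4.65% and 7.68% of all tested genes. On the TPM scale the split over all tested genes was 900 higher and 741 lower, against 662 and 1094 on the FPKM scale, and 4 imprinted genes had such a p. With limma voom on recovered reads 0 imprinted genes passed as well, and 8 of 35 had an unadjusted p under 0.05.

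Signs were mixed. Of the 30 tested genes 18 had a positive and 12 a negative log2 difference, with a median of 0.12, beside 0.00 over all tested genes. Paternally expressed genes (15 tested, 9 positive) had a median of 0.12 and maternally expressed genes (13 tested, 8 positive) a median of 0.16, and both classes held genes of either sign. Both medians moved with single libraries. The maternal median was -0.03 without cKO replicate 1 and 0.09 without WT replicate 1, and the paternal median was 0.02 without cKO replicate 3, 0.05 without WT replicate 1 and 0.23 without WT replicate 3. The median of all 30 was 0.02 without cKO replicate 3, 0.02 without WT replicate 1 and 0.04 with length and GC trends removed. The cKO and WT values did not overlap for 8 genes. Peg10, Copg2, Rian and Ube3a were higher in every cKO library, beside 8.69% of all tested genes, and H19, Dlk1, Meg3 and Mirg were lower in every cKO library, beside 9.92% of all tested genes. An exact permutation test, two-sided, gave p = 0.1 for each of these 8, and 3 against 3 libraries allow none smaller. Any gene without overlap gets this p, so it restates how the 8 were picked and adds no support.

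**Figure D2:**
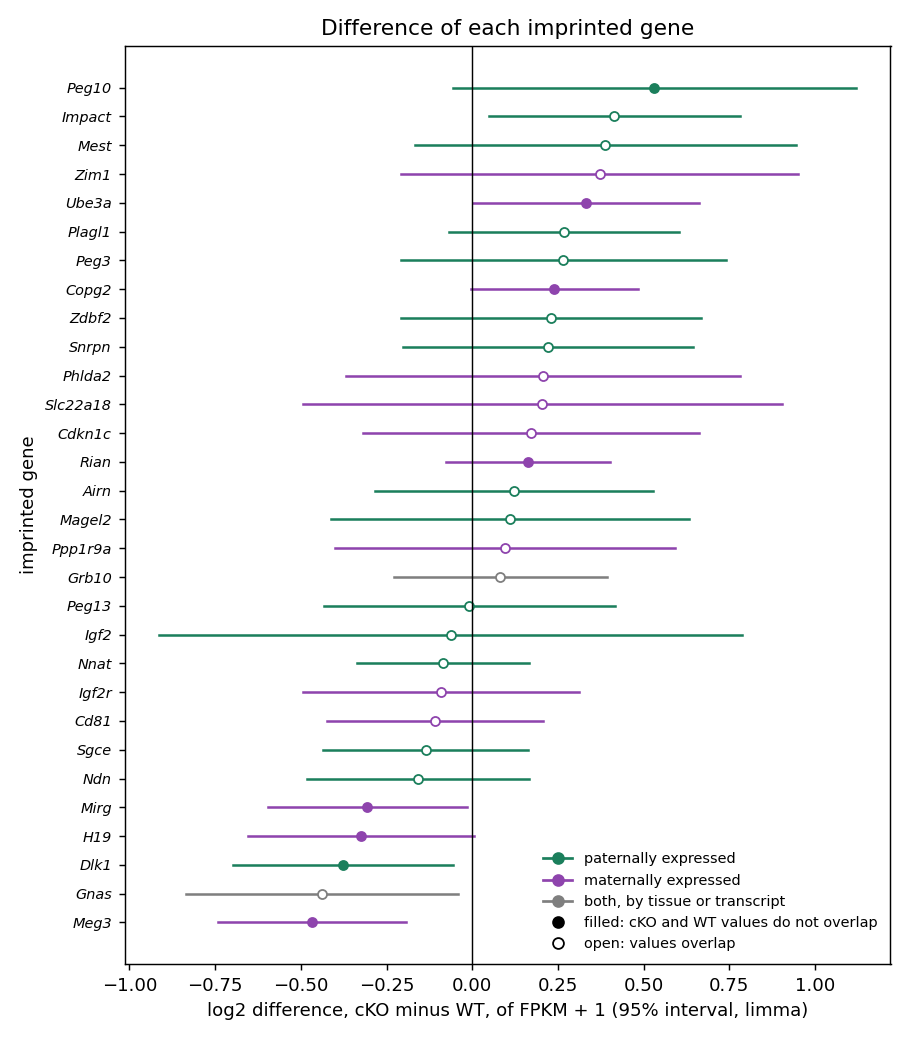
Log2 difference, cKO minus WT, of log2(FPKM + 1) with its 95% interval from limma for the 30 tested imprinted genes. Colours give the parental copy by textbook assignment, and filled points mark cKO and WT values that do not overlap. Differences run from -0.47 (Meg3) to 0.53 (Peg10), and both parental classes lie on both sides of 0.

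The Dlk1-Meg3 domain on chromosome 12 held 3 of the 4 genes that were lower in every cKO library. Dlk1, expressed from the paternal copy, encodes a transmembrane protein with EGF-like repeats that holds back differentiation, as known in fat precursors. It had 149, 132 and 129.6 FPKM in cKO libraries, against 202, 169 and 165 FPKM in WT libraries, with no overlap. The log2 difference was -0.38 (SE 0.14, adjusted p = 0.380 by limma). Meg3, the maternally expressed long non-coding RNA of the domain, had 16.1, 15.97 and 16.2 FPKM in cKO libraries, against 19.7, 23.8 and 24.8 FPKM in WT libraries. The cKO libraries were nearly equal and all lay below the lowest WT library. Its log2 difference was -0.47 (SE 0.12, 95% interval -0.74 to -0.19, adjusted p = 0.361 by limma), with a cKO mean at 70.7% of the WT mean.

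Mirg, a maternally expressed host of microRNAs at the far end of the domain, had 3.23, 2.79 and 2.85 FPKM in cKO libraries, against 4.40, 3.74 and 3.56 FPKM in WT libraries. Again no cKO value reached a WT value, and the log2 difference was -0.31 (SE 0.13, adjusted p = 0.397 by limma). Rian, which hosts small nucleolar RNAs and lies between Meg3 and Mirg on the same strand, went the other way. It had 16.2, 18.0 and 18.3 FPKM in cKO libraries, against 15.9, 15.3 and 15.4 FPKM in WT libraries, a log2 difference of 0.16 (SE 0.10, limma adjusted p = 0.531). After removal of length and GC trends within each library the difference of Rian was -0.23, and that of Meg3 was -0.55. Rtl1, a retrotransposon-derived gene read from the paternal copy on the opposite strand, lay between 0.520 and 0.794 FPKM in cKO and 0.721 and 0.880 FPKM in WT libraries, with overlap.

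Plain FPKM ratios within a library do not depend on how that library was scaled. Log2 ratios with 1 FPKM added still do in part, most for low genes. The ratio of Rian to Meg3 FPKM was 1.004, 1.13 and 1.13 in cKO libraries, against 0.808, 0.641 and 0.621 in WT libraries, so the groups did not overlap. On the log2 scale, with 1 FPKM added to each, the difference was 0.63 (exact two-sided permutation p = 0.1, 0.9 after Benjamini-Hochberg adjustment over the 9 ratios computed). It stayed between 0.56 and 0.74 when any 1 library was left out. The permutation p is fixed at 0.1 wherever the groups do not overlap, so it adds no support. The ratio was not recomputed with length and GC trends removed. In that setting the differences of Rian (-0.23) and Meg3 (-0.55) were closer together than in the main fit (0.16 and -0.47). The ratio of Meg3 to Dlk1 overlapped between the groups, at 0.108 to 0.125 in cKO and 0.0974 to 0.150 in WT libraries. Meg3, Rian and Mirg are annotated as separate genes on GRCm38 (GENCODE M21, plus strand) at 109541001 to 109571726, 109603940 to 109661716 and 109729764 to 109749460, and Dlk1 at 109452823 to 109463336.

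**Figure D3:**
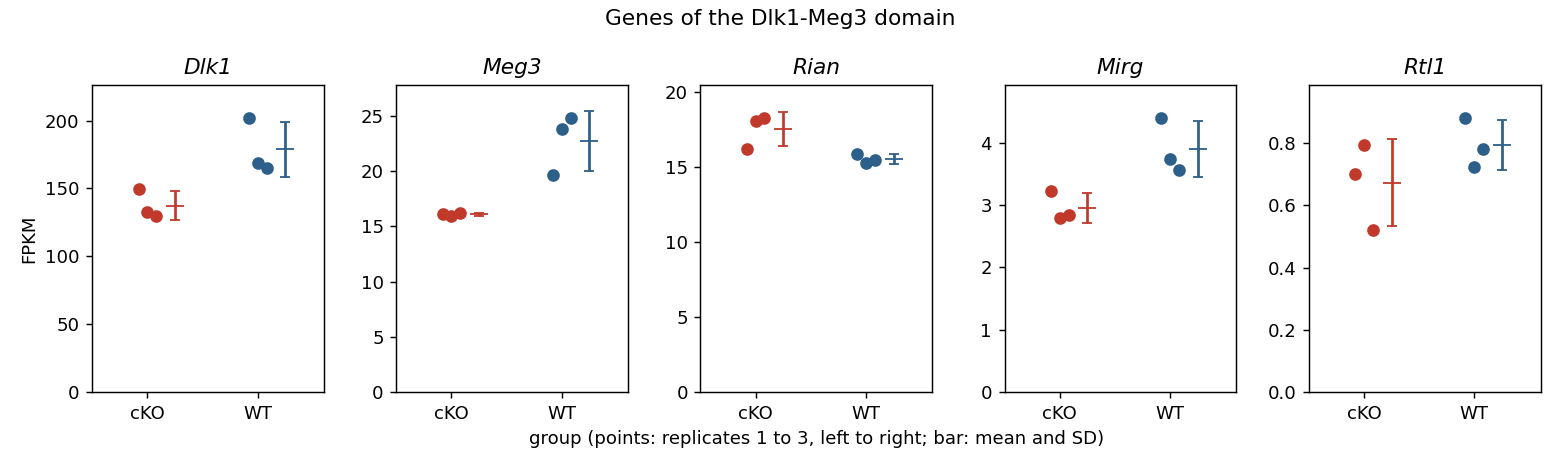
FPKM of the 5 genes of the Dlk1-Meg3 domain in cKO (left in each panel) and WT libraries, each axis starting at 0, with points for replicates 1 to 3 from left to right and a bar for the mean and SD. Dlk1, Meg3 and Mirg lie lower in every cKO library, Rian lies higher, and Rtl1 overlaps.

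Mirg contains 14 RefSeq microRNA hairpins on its own strand with 26 mature microRNAs and 25 different seeds, and H19 contains 1 hairpin, that of miR-675. The mature sequences of the H19 hairpin and 2 of Mirg are given, with the seed (bases 2 to 8) in capitals, since their hosts were lower in every cKO library. miR-453 and miR-496a-5p share the only seed found more than once among the microRNAs inside these genes. Mature microRNAs are not analysed here, so a host level is no measure of them.
mmu-miR-675-5p: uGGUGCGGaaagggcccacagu
mmu-miR-675-3p: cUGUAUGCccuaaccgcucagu
mmu-miR-453: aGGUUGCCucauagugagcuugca
mmu-miR-496a-5p: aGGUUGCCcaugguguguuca

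H19 and Igf2 lie side by side on chromosome 7 and share enhancers, so that in most tissues the maternal copy gives H19, a long non-coding RNA, and the paternal copy gives Igf2, a fetal growth factor. H19 had 393, 343 and 358 FPKM in cKO libraries, against 484, 423 and 464 FPKM in WT libraries. Every cKO library lay below every WT library, and the log2 difference was -0.33 (SE 0.14, adjusted p = 0.406 by limma). With length and GC trends removed it was -0.15. Igf2 is given by library outside the naming rule, chosen after its values were seen. It had 5.72, 4.84 and 6.35 FPKM in cKO libraries, against 2.49, 8.69 and 8.70 FPKM in WT libraries. WT replicate 1 was the lowest and the other WT libraries the highest, so the difference of -0.06 (SE 0.37) rests on that library and was -0.55 without it.

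The ratio of H19 to Igf2 FPKM was 68.7, 71.0 and 56.3 in cKO libraries, against 194, 48.7 and 53.3 in WT libraries, which set WT replicate 1 apart from the other 5. H19 is annotated as a long intergenic non-coding RNA (142575529 to 142578143, minus strand, GRCm38). Igf2 (142650766 to 142666816, minus strand) shares exon bases with Igf2os on the opposite strand, and since the use of strand in counting is not stated, reads of the 2 genes cannot be told apart. Igf2r, whose maternally expressed product takes IGF2 to the lysosome, had 23.3, 18.95 and 24.0 FPKM in cKO libraries, against 18.2, 27.5 and 25.8 FPKM in WT libraries, with overlap. Airn, the paternal antisense RNA that silences Igf2r in cis, averaged 2.80 ± 0.815 FPKM in cKO and 2.45 ± 0.285 FPKM in WT testis (SD, n = 3 each). Grb10, an adaptor that dampens insulin and IGF receptor signalling, had 84.0, 73.9 and 87.5 FPKM in cKO libraries, against 67.9, 84.3 and 79.8 FPKM in WT libraries, also with overlap.

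The zinc finger and retrotransposon-derived genes Plagl1, Peg3, Zim1 and Peg10 and the hydrolase-like gene Mest had positive differences that were smaller without WT replicate 1. In mouse tissues, Plagl1 encodes a zinc finger transcription factor that acts on other imprinted genes. Peg10 had 27.2, 27.2 and 31.2 FPKM in cKO libraries, against 12.2, 22.2 and 26.9 FPKM in WT libraries. The groups did not overlap, but WT replicate 3 lay close to the cKO values, and the log2 difference of 0.53 (SE 0.25, limma adjusted p = 0.427) was 0.21 without WT replicate 1. Sgce, which encodes epsilon-sarcoglycan and points away from Peg10 on the other strand, averaged 4.84 ± 0.304 FPKM in cKO and 5.45 ± 0.836 FPKM in WT testis (SD, n = 3 each). Ppp1r9a, the neurabin gene next to them, averaged 5.10 ± 0.762 FPKM in cKO and 4.85 ± 1.597 FPKM in WT testis (SD, n = 3 each).

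Mest had 137, 159 and 174 FPKM in cKO libraries, against 83.5, 122 and 166 FPKM in WT libraries. The WT libraries spread wider than the cKO libraries, and the difference of 0.39 (SE 0.24) was 0.14 without WT replicate 1. Copg2, which encodes a coatomer subunit and whose exons overlap those of Mest on the opposite strand, had 17.2, 20.1 and 18.8 FPKM in cKO libraries, against 15.5, 15.7 and 15.8 FPKM in WT libraries. All cKO values lay above the nearly equal WT values, with a log2 difference of 0.24 (SE 0.11, limma adjusted p = 0.406), which was 0.12 with length and GC trends removed. Reads of Mest and Copg2 that fall on shared bases cannot be assigned without strand.

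Plagl1 had 61.2, 63.6 and 75.5 FPKM in cKO libraries, against 47.4, 62.2 and 56.7 FPKM in WT libraries. Peg3, which encodes a large zinc finger protein, had 52.0, 55.0 and 67.0 FPKM in cKO libraries, against 34.9, 52.3 and 59.7 FPKM in WT libraries. The groups overlapped for both genes. For Plagl1 the difference of 0.27 (SE 0.15) was 0.16 when WT replicate 1 was left out and 0.18 when cKO replicate 3 was. For Peg3 the difference of 0.27 (SE 0.21) was 0.05 when WT replicate 1 was left out and 0.16 when cKO replicate 3 was. Usp29, the ubiquitin protease gene that shares the start region of Peg3 shown above, reached at most 0.782 FPKM in cKO and 0.835 FPKM in WT libraries. Per unit length Peg3 thus stood 70.4 to 88.7 times above Usp29 in cKO libraries and 71.5 to 83.6 times above it in WT libraries, with overlap. Zim1, the maternally expressed neighbour of Peg3, had 14.7, 16.2 and 21.4 FPKM in cKO libraries, against 8.52, 14.9 and 17.4 FPKM in WT libraries. It followed the same order of libraries as Peg3 within cKO and within WT, and its difference of 0.37 (SE 0.25) was 0.09 without WT replicate 1.

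WT replicate 1 was the lowest of the 6 libraries for 16 of the 30 tested imprinted genes (53.3%), beside 27.7% of all tested genes. For 10 genes WT replicate 1 was the lowest and cKO replicate 3 the highest (33.3%, beside 12.7% of all tested genes). These were Mest, Grb10, Plagl1, Peg3, Peg10, Zim1, Zdbf2, Ube3a, Airn and Magel2. Both libraries were singled out after the values were seen, so the shares are a description and not a test. H19, Dlk1, Ndn, Sgce and Mirg were instead highest in WT replicate 1 (16.7%, beside 26.9% of all tested genes). Without that library 15 of the 30 genes had a positive and 15 a negative difference, with a median of 0.02. The same library had the highest share of 18S reads (2.09%), the lowest share of mitochondrial reads (1.66%) and the highest summed level of Sertoli markers (2576 FPKM). Its summed level of 17 spermatogonial markers was 354 FPKM, beside 177 to 306 FPKM in the other 5 libraries, but by the mean log2 deviation of the 13 tested among them it lay close to cKO replicates 1 and 2 (0.15 beside 0.14 and 0.12). The part of these in the pattern was not tested.

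**Figure D4:**
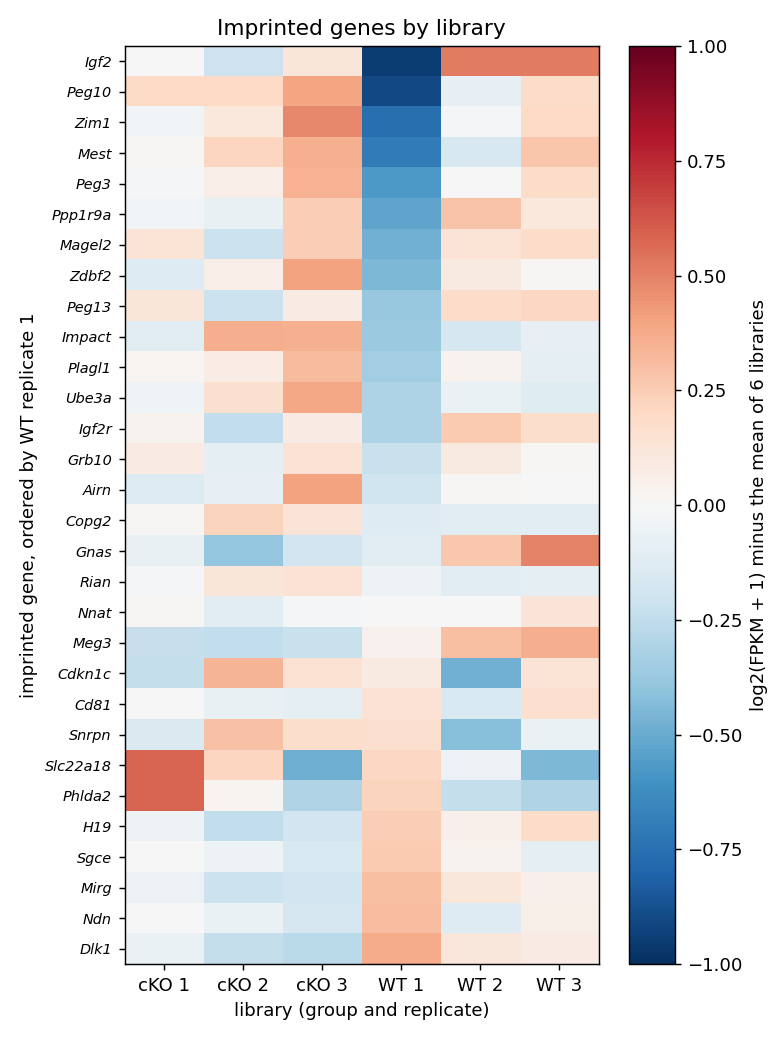
Log2(FPKM + 1) of the 30 tested imprinted genes in each library minus the gene's mean over 6 libraries, as colour, with genes ordered by WT replicate 1 and cKO libraries left of WT libraries. WT replicate 1 is blue (low) for Igf2, Peg10, Zim1, Mest and Peg3 and red (high) for Dlk1, Ndn, Mirg, Sgce and H19.

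In the Kcnq1ot1 domain on chromosome 7, cKO and WT values overlapped for each of the 6 genes among the 35. Cdkn1c, which encodes the p57 inhibitor of cyclin-dependent kinases, had 54.4, 81.6 and 71.4 FPKM in cKO libraries, against 68.2, 45.8 and 70.6 FPKM in WT libraries. Cd81, a tetraspanin gene at the edge of the domain, had 144, 136 and 134 FPKM in cKO libraries, against 158, 129 and 161 FPKM in WT libraries. The log2 difference was 0.17 (SE 0.21) for Cdkn1c and -0.11 (SE 0.14) for Cd81. Kcnq1ot1, the paternal non-coding RNA that silences the domain in cis, was low per unit length. It had 0.0812 to 0.154 FPKM in cKO and 0.101 to 0.127 FPKM in WT libraries, from 129 to 237 reads per library over 93092 bases. It shares exon bases with Kcnq1 on the opposite strand.

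Phlda2, which restrains placental growth, averaged 2.46 ± 1.09 FPKM in cKO and 1.94 ± 0.607 FPKM in WT testis (SD, n = 3 each). Slc22a18, a transporter gene, averaged 1.20 ± 0.769 FPKM in cKO and 0.856 ± 0.413 FPKM in WT testis (SD, n = 3 each). Both rest on few reads, 28 to 70 per library for Phlda2 and 11 to 56 for Slc22a18. Ascl2, a basic helix-loop-helix factor gene, had 9 to 48 reads per library.

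Genes of the Prader-Willi and Angelman region on chromosome 7 were present at moderate to low levels. Ube3a, a ubiquitin ligase gene whose imprinting is known from neurons, had 5.01, 5.91 and 7.09 FPKM in cKO libraries, against 4.01, 4.92 and 4.70 FPKM in WT libraries. The lowest cKO value was just above the highest WT value, and the log2 difference of 0.33 (SE 0.14, limma adjusted p = 0.405) was -0.01 with length and GC trends removed. Its exons overlap Snhg14 on the opposite strand. Ndn, the necdin gene, had 45.5, 43.5 and 40.4 FPKM in cKO libraries, against 56.8, 41.5 and 47.4 FPKM in WT libraries, with overlap. Snrpn, which encodes a spliceosomal Sm protein and shares exon bases with Snurf, averaged 5.09 ± 0.921 FPKM in cKO and 4.25 ± 1.04 FPKM in WT testis. Magel2, of the same MAGE family as necdin, averaged 1.70 ± 0.435 FPKM in cKO and 1.53 ± 0.597 FPKM in WT testis (SD, n = 3 each).

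Among imprinted genes at single loci, Gnas and Impact stood farthest from 0. Gnas, which gives the stimulatory G protein alpha subunit and several transcripts with different imprinting, had 9.07, 7.07 and 8.24 FPKM in cKO libraries, against 8.78, 11.8 and 13.9 FPKM in WT libraries. The highest cKO library overlapped the lowest WT library, and the log2 difference was -0.44 (SE 0.17, adjusted p = 0.385 by limma). Its transcripts are not separated in the table, and its exons overlap Nespas. Impact, a regulator of the GCN2 stress kinase pathway, had 8.14, 11.6 and 11.6 FPKM in cKO libraries, against 6.57, 7.74 and 8.27 FPKM in WT libraries. A single cKO library overlapped the WT values, and the difference was 0.41 (SE 0.16, limma adjusted p = 0.381), or 0.25 with length and GC trends removed.

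Nnat, the neuronatin gene, was among the steadiest, with 45.4, 41.6 and 44.4 FPKM in cKO libraries, against 44.9, 45.2 and 49.5 FPKM in WT libraries. Zdbf2, a zinc finger gene whose upstream window is shown above, averaged 7.29 ± 1.58 FPKM in cKO and 6.08 ± 1.34 FPKM in WT testis. Peg13, a non-coding RNA, averaged 7.18 ± 1.01 FPKM in cKO and 7.32 ± 1.77 FPKM in WT testis (SD, n = 3 each). Its neighbour Kcnk9, a potassium channel gene, had 6 to 23 reads in cKO and 5 to 12 reads in WT libraries, with overlap.

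Other genes bearing on imprinting were read for comparison. Of 45 further imprinted genes, 27 were tested, 0 passed in either direction by limma, and their median log2 difference was -0.00, with 1 higher and 1 lower at an unadjusted p under 0.05. Tssc4, in the Kcnq1ot1 domain, averaged 13.3 ± 2.43 FPKM in cKO and 22.1 ± 5.80 FPKM in WT testis (SD, n = 3 each), with no overlap (log2 difference -0.67, SE 0.20, limma adjusted p = 0.372). Inpp5f, a phosphoinositide phosphatase gene, averaged 5.39 ± 0.569 FPKM in cKO and 4.19 ± 0.179 FPKM in WT testis, again with no overlap. Gatm, a creatine synthesis gene, averaged 46.5 ± 2.35 FPKM in cKO and 54.9 ± 3.93 FPKM in WT testis, also with no overlap.

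Of 17 tested genes that set or keep imprints 0 passed by limma and 0 had an unadjusted p under 0.05, with a median of 0.05. Dnmt1, the maintenance DNA methyltransferase gene, averaged 26.0 ± 2.62 FPKM in cKO and 30.2 ± 4.17 FPKM in WT testis, and Uhrf1, its partner, 26.6 ± 3.89 FPKM in cKO and 31.6 ± 5.95 FPKM in WT testis. Smchd1, which helps to silence imprinted clusters, averaged 6.62 ± 0.365 FPKM in cKO and 5.53 ± 0.669 FPKM in WT testis. Of 14 receptors, binding proteins and other partners of IGF2, 9 had a positive and 5 a negative log2 difference, with a median of 0.07. By limma 0 of the 14 passed and 1 had an unadjusted p under 0.05. That gene was Igfbp4, which encodes an IGF-binding protein, at 133 ± 4.87 FPKM in cKO and 185 ± 23.0 FPKM in WT testis, with no overlap. Igfbp6 averaged 17.6 ± 5.95 FPKM in cKO and 23.7 ± 4.81 FPKM in WT testis, and Igfbp2 38.6 ± 4.04 FPKM in cKO and 47.7 ± 12.9 FPKM in WT testis (SD, n = 3 each), both with overlap.

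The summed levels of the Sertoli, stroma and endothelial lists were lower in every cKO library, as were H19, Dlk1, Meg3 and Mirg, while 0 single markers of these lists passed by limma. The summed level of 20 Sertoli markers was 1451 to 1684 FPKM in cKO and 1976 to 2576 FPKM in WT libraries, and all 20 had a negative difference, 11 of them at an unadjusted p under 0.05. That of 12 stroma markers was 1096 to 1374 FPKM in cKO and 1399.6 to 1492 FPKM in WT libraries, with 9 negative and 3 positive differences (median -0.23) and 3 genes lower at an unadjusted p under 0.05. That of 10 endothelial markers was 115 to 128 FPKM in cKO and 139.9 to 147 FPKM in WT libraries, with 8 negative and 2 positive differences (median -0.19) and 4 genes lower at such a p. Their part in the differences of the imprinted genes was not tested.

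For the other cell types the summed levels overlapped between the groups, though single markers did not always. Tpm2 and Des (myoid) and C1qa and C1qb (macrophage) were lower in every cKO library, and Lhcgr (Leydig), Hbb-bs (red blood cell), Tex14 and Tex15 (meiotic) were higher in every cKO library. None of these passed by limma, and each was among the 3 genes of its list with the lowest p. Over all tested genes 8.69% were higher and 9.92% lower in every cKO library. Tested myoid markers had 2 positive and 5 negative differences, and macrophage markers 6 positive and 4 negative (median 0.05). Leydig markers had 6 positive and 3 negative, red blood cell genes 7 and 0, and meiotic markers 10 and 3. The summed level of 8 peritubular myoid markers was 317 to 351 FPKM in cKO and 333 to 406 FPKM in WT libraries, and that of 10 Leydig markers 1545 to 1804 FPKM in cKO and 1332 to 1964 FPKM in WT libraries. Macrophage markers (10 genes) summed to 70.7 to 116 FPKM in cKO and 72.7 to 90.1 FPKM in WT libraries, with Lyz2 alone at 90.98 FPKM in cKO replicate 2. Red blood cell genes (7 genes) summed to 4868 to 6495 FPKM in cKO and 2717 to 5699 FPKM in WT libraries. Meiotic prophase markers (14 genes) summed to 84.8 to 119 FPKM in cKO and 61.8 to 98.0 FPKM in WT libraries, spermatogonial markers to 212 to 306 FPKM in cKO and 177 to 354 FPKM in WT libraries, and spermatid markers to 12.02 to 12.7 FPKM in cKO and 11.98 to 13.1 FPKM in WT libraries.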

How the data were processed

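The authors deposited a table of FPKM values per gene for 6 libraries, made with a SMARTER mRNA-Seq kit from Trizol-extracted RNA per the labels' protocols. The submitters' processing notes name the builds GRCm38 and mm10, and the sources used here give no aligner, counter, annotation release or use of strand. Of 52133 gene identifiers shared with GENCODE M21 (GRCm38) only 1551 had the same start in the table, so positions were looked up in GENCODE M21 by identifier. FPKM times gene length was a whole multiple of a step in each library for 100% of values (tolerance 0.01), which gave the numbers of reads. The total behind the scaling was 0.99 to 1.02 times these reads. Read numbers cover counting error only.

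Differences (cKO minus WT) were tested with limma-trend (limma 3.58.1, R 4.3.3) on log2(FPKM + 1). Genes averaging 1 FPKM or more (14238) entered, with p-values adjusted by Benjamini-Hochberg, and the fit was tested on simulated data. Exact permutation tests used all 20 assignments. Alternatives were other pseudocounts, filters and scalings, robust estimation, a replicate block, limma voom on the recovered reads (genes reaching 10 reads in 3 libraries), removal of length and GC trends (splines with 5 degrees of freedom, GC known for 97.9% of tested genes), and leaving out each library. The members and lists were chosen with earlier results of these data known. Values by library are given for the 16 members with the highest mean FPKM and the 8 with the lowest p, and up to 3 genes per further list are named. Tables were handled in Python 3.11.15 (pandas 2.3.3, numpy 2.4.6) and plots drawn with matplotlib 3.10.9.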

Additional observations from a re-analysis of the deposited data

How the results depend on the processing

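Under all 17 other settings 0 imprinted genes passed, and the lowest adjusted p of any of them in any setting was 0.227. Of the 30 tested genes 17 kept their sign in every setting that tested them, among them H19, Dlk1, Meg3, Mirg, Gnas, Impact, Copg2 and Peg10. The setting with a minimum of 5 FPKM tested 23 of the 30, without Mirg. Over all genes the count past the threshold was 2, and it was 1 with pseudocounts of 0.1 and 0.5, a minimum of 5 FPKM, TPM, median-of-ratios scaling or voom, 0 without a filter or with the replicate block, 3 with length and GC trends removed, 2 with robust estimation or rescaling, and 0 to 0 without any 1 library. The labels do not say whether the replicate numbers pair the libraries, and 3 libraries per group are too few to decide it. Deviations of same-numbered libraries correlated at 0.095, -0.33 and 0.39, and not every library correlated best with its own number.

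With length and GC trends removed the maternal median was -0.049, and Rian (-0.23), Nnat (0.16), Ube3a (-0.0097), Ppp1r9a (-0.049), Igf2 (0.066) and Peg13 (0.026) changed sign. On the TPM scale Igf2 was 0.0095 and Peg13 0.051. Peg13 was 0.013 with voom and 0.011 when rescaled without ribosomal RNA, mitochondrial and haemoglobin genes. The cause was not tested. Without 1 library in turn, the maternal median ranged from -0.032 to 0.14, Igf2 from -0.55 to 0.18, Igf2r from -0.27 to 0.019, Peg13 from -0.20 to 0.098, Grb10 from -0.0070 to 0.15, Cdkn1c from -0.025 to 0.33, Ppp1r9a from -0.15 to 0.26, Airn from -0.048 to 0.22, Phlda2 from -0.032 to 0.41, Magel2 from -0.10 to 0.25 and Slc22a18 from -0.035 to 0.50. Likewise the log2 ratio difference ranged from -0.56 to 0.27 for H19/Igf2, -0.28 to 0.026 for Meg3/Dlk1, -0.29 to 0.049 for Kcnq1ot1/Cdkn1c, -0.21 to 0.29 for Igf2r/Igf2, -0.097 to 0.38 for Mest/Copg2 and -0.32 to 0.095 for Snrpn/Ube3a. With 1 FPKM added, Kcnq1ot1 (at most 0.154 FPKM) is nearly constant, so its ratio to Cdkn1c mainly follows Cdkn1c.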
